A study of Mus musculus with 8 samples.

Results

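Glioma CD8 T cells are described here as 327 cell barcodes of the glioma library of a mouse brain study. They were chosen by transcript counts: at least 2 unique molecular identifiers (UMIs, each standing for 1 captured transcript) of Cd3d, Cd3e and Cd3g together, at least 2 of Cd8a and Cd8b1 together, none of Csf1r or Foxp3, and fewer than 5 of Gzmd, Gzme, Gzmf and Ccl1 together. Barcodes first had to hold at least 1000 UMIs and 500 genes with at most 10% mitochondrial UMIs. The 327 cells were 2.98% (2.67 to 3.32%, exact binomial interval) of the 10963 glioma barcodes that passed, out of 24420 in the whole series. They held 3799562 UMIs, with a median of 8861 per cell (1575 to 68888) and a median of 2110 genes.

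The study profiled CD45+ leukocytes by droplet 3' RNA sequencing, after magnetic sorting from brain tumours of glioma-bearing mice and from the brains of normal mice. Its title concerns the nuclear receptor Nr4a2 and immunosuppression. The labels list 4 glioma and 4 control samples. The counts form 1 pooled matrix a group with no key from barcode to animal, so no difference could be tested and all intervals cover counting error only, at 95%. Strain, age, tumour line and any treatment are not given in the sources used here. The groups used below are glioma CD8 T cells and, from the same glioma library, 22 CD8 T cells that met every other condition but held 5 or more UMIs of Gzmd, Gzme, Gzmf and Ccl1; 277 conventional CD4 T cells, with the same CD3, Csf1r, Foxp3 and Gzmd/e/f and Ccl1 limits, at least 1 Cd4 UMI and no CD8 UMI; and 63 NK cells with no CD3 or Csf1r UMI and at least 2 UMIs of Ncr1 and Klrb1c. The CD4 T cells are called conventional only because they held no Foxp3 UMI, at a median depth of 6911 UMIs. Regulatory T cells whose Foxp3 was not captured may remain among them. Their part in the ratios against CD4 T cells was not tested. The control library gave 3 CD8 T cells of 13457 passing barcodes, 0.0223% (0.0046 to 0.0651%).

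CD8 T cells recognise peptides on MHC class I through a T cell receptor and the CD8 co-receptor. Killing runs through granules that hold perforin, which opens membranes, and granzymes, the proteases that enter the target. In tumours, CD8 T cells are known to span states from cells that keep naive and memory genes to effector cells and to cells with sustained inhibitory receptors such as PD-1.

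The CD8 marker genes went with the label. CD8 subunits chose the cells, and 273 of them held both Cd8a and Cd8b1 UMIs, 44 held only Cd8a and 10 only Cd8b1. The markers that the rule did not use were high: Gzmb, the main granzyme of effector T cells, stood at 1279 CPM, its UMIs summed over the cells and scaled to a total of 1000000 (1243 to 1315), and Nkg7, a granule membrane protein of cytotoxic cells, at 1042 CPM (1010 to 1075). In 4854 glioma cells with at least 3 Csf1r UMIs and no CD3 or CD8 UMI, which stand for macrophages and should lack both, Gzmb was at 2.14 CPM and Nkg7 at 1.95 CPM. The free RNA of the glioma library, from barcodes with 10 to 100 UMIs, held 72.3 CPM of Gzmb and 49.9 CPM of Nkg7. Neither gene was particular to these cells. As given below, NK cells held both at similar or higher levels, CD4 T cells held Nkg7 too, and the CD8 T cells with Gzmd/e/f and Ccl1 transcripts held more Gzmb. Of 11 NK markers, Ncr1, Klra8 and Cma1 were at 0 UMIs and 8 had UMIs, Gzma among them. Their sum was 1266 CPM, against 286 CPM in CD4 T cells. Of 10 gamma delta markers 8 had UMIs, summing to 89.7 CPM in CD8 and 18.8 CPM in CD4 T cells. A Trdc UMI of the gamma delta receptor was in 4 cells. CD4 and regulatory T cell markers summed to 522 CPM in CD8 and 1635 CPM in CD4 T cells, and 8 CD8 T cells held a Cd4 UMI.

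Some cells lay close to the limits of the rule. Inside it, 28 cells held exactly 2 CD8 UMIs, and 44 cells outside held 1. Only 4 cells inside held exactly 2 CD3 UMIs. The Csf1r condition left out 93 cells, 34 of them for a single Csf1r UMI, and the 93 had a median depth of 19454 UMIs. Of the cells inside, 297 held no UMI of Gzmd, Gzme, Gzmf and Ccl1 and 24 held 1.

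RNA of other leukocytes was present in these barcodes. Of 18 macrophage, monocyte and microglia markers, 17 had UMIs and Csf1r was at 0 by the rule; their sum was 751 CPM, against 1080 CPM in CD4 T cells and 26991 CPM in the Csf1r cells. A Lyz2 UMI was present in 191 cells and a C1qb UMI in 124. Dendritic cell markers summed to 1379 CPM in CD8 and 1998 CPM in CD4 T cells, with 694 UMIs in a single CD8 cell. Neutrophil markers summed to 492 CPM in CD8 and 260 CPM in CD4 T cells, with 748 UMIs in a single CD8 cell. B cell markers stayed at 26.6 CPM in CD8 and 30.4 CPM in CD4 T cells, and erythroid markers were at 0 in both. In all, 40 CD8 and 31 CD4 cells held 10 or more UMIs of Cst3, Cd74, Lyz2 or the pair S100a8 and S100a9. Several results moved when these cells were left out, and values without them stand beside some of the results below. Of 41 barcodes that passed in both libraries, 1 was a glioma CD8 and 1 a glioma CD4 T cell.

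The genes that set CD8 apart from CD4 T cells most, described in detail below, include 2 granzyme loci and the surface antigen Ly6c2. The upstream 250 bases of 5 of them, each holding a motif searched for, are shown. Of the 10 leading genes whose promoter could be matched, 7 held a RUNX core (TGTGGT or ACCACA) there, against 14.2% of all 27025 promoters in the table. Both strands were searched. Among 8 matched promoters of the genes lowest in CD8, 1 held it. The second motif searched, a T-box core site (GGTGTGA or TCACACC), was in 2 of the 10 promoters, in 0 of the 8 and in 3.31% of all. RUNX3 and the T-box factors T-bet and Eomes are known regulators of CD8 T cells, but a match of these letters is a description of the sequence and not a binding site. Sequences are from RefSeq on GRCm38.p6, written 5' to 3' on the strand of the gene, and capitals mark the motifs.
Gzmb (chr14:56262335-56262584, minus strand): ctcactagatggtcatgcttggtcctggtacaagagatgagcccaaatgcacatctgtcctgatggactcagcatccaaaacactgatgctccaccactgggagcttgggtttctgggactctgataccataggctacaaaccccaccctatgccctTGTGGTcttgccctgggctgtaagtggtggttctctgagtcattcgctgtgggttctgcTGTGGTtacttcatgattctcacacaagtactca
Gzma (chr13:113100982-113101231, minus strand): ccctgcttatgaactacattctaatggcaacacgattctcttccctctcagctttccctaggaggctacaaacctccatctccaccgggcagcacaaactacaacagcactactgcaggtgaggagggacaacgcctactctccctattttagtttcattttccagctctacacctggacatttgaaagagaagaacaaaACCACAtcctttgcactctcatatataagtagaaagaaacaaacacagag
Ly6c2 (chr15:75111972-75112221, minus strand): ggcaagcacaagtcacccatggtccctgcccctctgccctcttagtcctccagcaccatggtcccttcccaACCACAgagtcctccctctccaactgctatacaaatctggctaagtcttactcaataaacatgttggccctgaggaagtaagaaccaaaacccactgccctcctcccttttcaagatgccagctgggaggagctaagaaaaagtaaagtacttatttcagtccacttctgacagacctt
Xcl1 (chr1:164935523-164935772, minus strand): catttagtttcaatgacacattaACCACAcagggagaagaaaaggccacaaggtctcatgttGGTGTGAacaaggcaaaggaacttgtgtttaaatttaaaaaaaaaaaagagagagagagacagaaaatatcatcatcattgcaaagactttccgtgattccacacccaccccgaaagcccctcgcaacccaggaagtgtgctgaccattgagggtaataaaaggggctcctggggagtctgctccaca
Gzmk (chr13:113180966-113181215, minus strand): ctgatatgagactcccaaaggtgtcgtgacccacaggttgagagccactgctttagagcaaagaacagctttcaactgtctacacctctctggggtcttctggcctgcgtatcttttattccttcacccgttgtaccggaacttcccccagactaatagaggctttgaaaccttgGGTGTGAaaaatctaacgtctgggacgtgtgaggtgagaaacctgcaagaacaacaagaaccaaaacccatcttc
The Gzmb stretch held the RUNX core at 2 positions, Xcl1 held both motifs, Gzma and Ly6c2 held the RUNX core and Gzmk the T-box core site. Of the matched leading genes not shown, Cd160, Klre1 and Klrk1 held the RUNX core, and Dapl1 and Atp8b4 held neither motif. Ccl5 and Cd7, also among the leading 12, are named only. The genes lie on mm10 at chromosome 14, 56258838 to 56262260 (Gzmb), chromosome 13, 113093825 to 113100981 (Gzma), and chromosome 15, 75108158 to 75111970 (Ly6c2), all on the minus strand.

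Granule and killing genes were mostly at or above their CD4 level. Of 19 members, 6 were at least 2-fold higher in CD8 than in CD4 T cells and 2 at least 2-fold lower, with a median log2 ratio of 0.48; over all 9317 genes with at least 20 UMIs in the 2 sums, 5.98% were at least 2-fold higher, 6.77% at least 2-fold lower, and the median was -0.02. Gzma, a tryptase-type granzyme, had 3674 UMIs or 967 CPM in CD8 and 89 UMIs or 39.8 CPM in CD4 T cells (log2 ratio 4.60, 4.30 to 4.92). Gzmk, the granzyme associated with memory-like CD8 T cells, had 76.1 CPM in CD8 and 7.15 CPM in CD4 T cells (3.37, 2.69 to 4.24). Gzmb had 1279 CPM in CD8 and 173 CPM in CD4 T cells (2.88, 2.73 to 3.04). All 3 intervals lay far above 0.

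The rest of the killing machinery was less one-sided. Prf1, perforin, had 69.5 CPM in CD8 and 22.3 CPM in CD4 T cells (1.62, 1.20 to 2.10), and Ctsw, a protease of cytotoxic cells, 302 and 71.1 CPM in CD8 and CD4 T cells (2.08). Fasl, the ligand of the Fas death receptor, had a ratio of 0.76 and Nkg7 0.74 (0.65 to 0.83; 1042 CPM in CD8 and 625 CPM in CD4 T cells). Gzmc did not differ beyond counting error, at 104 CPM in CD8 and 110 CPM in CD4 T cells (-0.07, -0.31 to 0.16). Srgn, the proteoglycan that packs granules, was lower in CD8 at 1019 CPM, against 2036 CPM in CD4 T cells (a ratio of -1.0). Stx11, a syntaxin of granule release, had 21.1 CPM in CD8 and 97.4 CPM in CD4 T cells (-2.20).

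**Figure D1:**
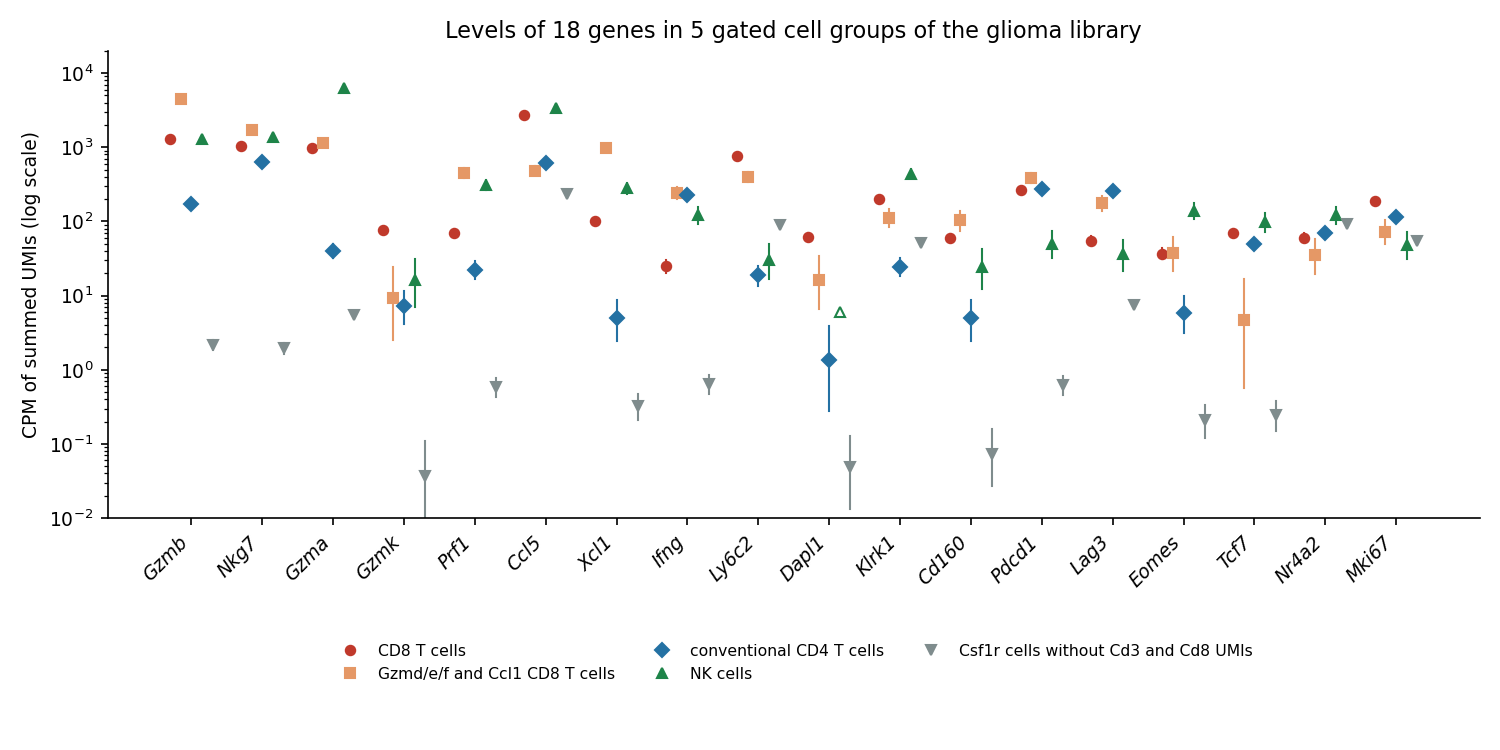
CPM of summed UMIs (log axis) of 18 genes in glioma CD8 T cells, the 22 Gzmd/e/f and Ccl1 CD8 T cells, CD4 T cells, NK cells and Csf1r cells; bars are exact Poisson intervals and an open symbol marks a gene at 0 UMIs, drawn at the level of 3 UMIs. Gzma at 967 CPM in CD8 T cells stands well above the 39.8 CPM of CD4 T cells, while Pdcd1 is at 263 CPM in CD8 and 274 CPM in CD4 T cells.

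NK-type receptors were also higher in CD8 T cells. Of 11 killer cell lectin-like receptor genes, 8 had at least 20 UMIs, and 4 of these were at least 2-fold higher in CD8 than in CD4 T cells with none at least 2-fold lower (median 1.0). Klrk1, which encodes the activating receptor NKG2D, had 203 CPM in CD8 and 24.6 CPM in CD4 T cells (3.03, 2.65 to 3.47). Klre1 had 111 CPM in CD8 and 18.8 CPM in CD4 T cells (2.55). Klrd1, which encodes CD94, the partner chain of NKG2 receptors, had a ratio of 1.34. Klra7, a Ly49 receptor, had 138 UMIs in CD8 and 2 in CD4 T cells (5.03, 3.46 to 8.40), though Ly49 genes are close copies and reads may be split between them. Klrg1, a receptor of terminal effector cells, had 31 UMIs in CD8 and 29 in CD4 T cells and a ratio of -0.67.

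The list of T cell receptor complex and proximal signalling genes showed the opposite tilt. None of its 16 members was at least 2-fold higher in CD8 and 3 were at least 2-fold lower (median -0.42). Cd247, the signalling zeta chain, had 50.8 CPM in CD8 and 162 CPM in CD4 T cells (-1.67, -1.93 to -1.42). Cd5, a brake on receptor signalling, had 51.6 CPM in CD8 and 144 CPM in CD4 T cells (-1.48), and the adhesion receptor Cd2 242 CPM in CD8 and 494 CPM in CD4 T cells (-1.03). Lck, the kinase carried by both co-receptors, was at 202 CPM in CD8 and 207 CPM in CD4 T cells (-0.03, -0.20 to 0.14). The constant regions Trac (-0.34) and Trbc2 (-0.21) lay slightly lower in CD8. Variable segments could not describe clones at this depth: beta segments had UMIs in 31 of 327 cells, and only 2 cells held 2 or more UMIs that named a single segment.

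Chemokines were split, and most effector cytokines were lower in CD8 than in CD4 T cells. Of 16 cytokine and chemokine genes, 14 had at least 20 UMIs; 2 were at least 2-fold higher and 8 at least 2-fold lower (median -1.44, and -3.57 without the cells that held RNA of other cell types). Ccl5, a chemokine of memory and effector CD8 T cells, reached 10187 UMIs or 2681 CPM in CD8, against 621 CPM in CD4 T cells (2.11, 2.03 to 2.19). Xcl1, the chemokine that attracts cross-presenting dendritic cells, had 102 CPM in CD8 and 4.92 CPM in CD4 T cells (4.31, 3.52 to 5.39). These were the only 2 of the list that were at least 2-fold higher.

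On the lower side stood the interferon and the growth factors. Ifng, the main T cell interferon, had 94 UMIs or 24.7 CPM in CD8 and 509 UMIs or 228 CPM in CD4 T cells (-3.19, -3.53 to -2.88), and 279 of the 327 CD8 T cells held no Ifng UMI. The free RNA of the library held 30.6 CPM of Ifng, about the CD8 level. Csf2, which encodes GM-CSF, had 9 UMIs in CD8 and 57 in CD4 T cells (-3.36), and Lta, lymphotoxin alpha, 8 in CD8 and 80 in CD4 T cells (-4.01). Il21, a helper cytokine, had 0 UMIs in CD8 and 24 in CD4 T cells. Tnf had 28 UMIs in CD8 and 26 in CD4 T cells (-0.66).

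**Figure D2:**
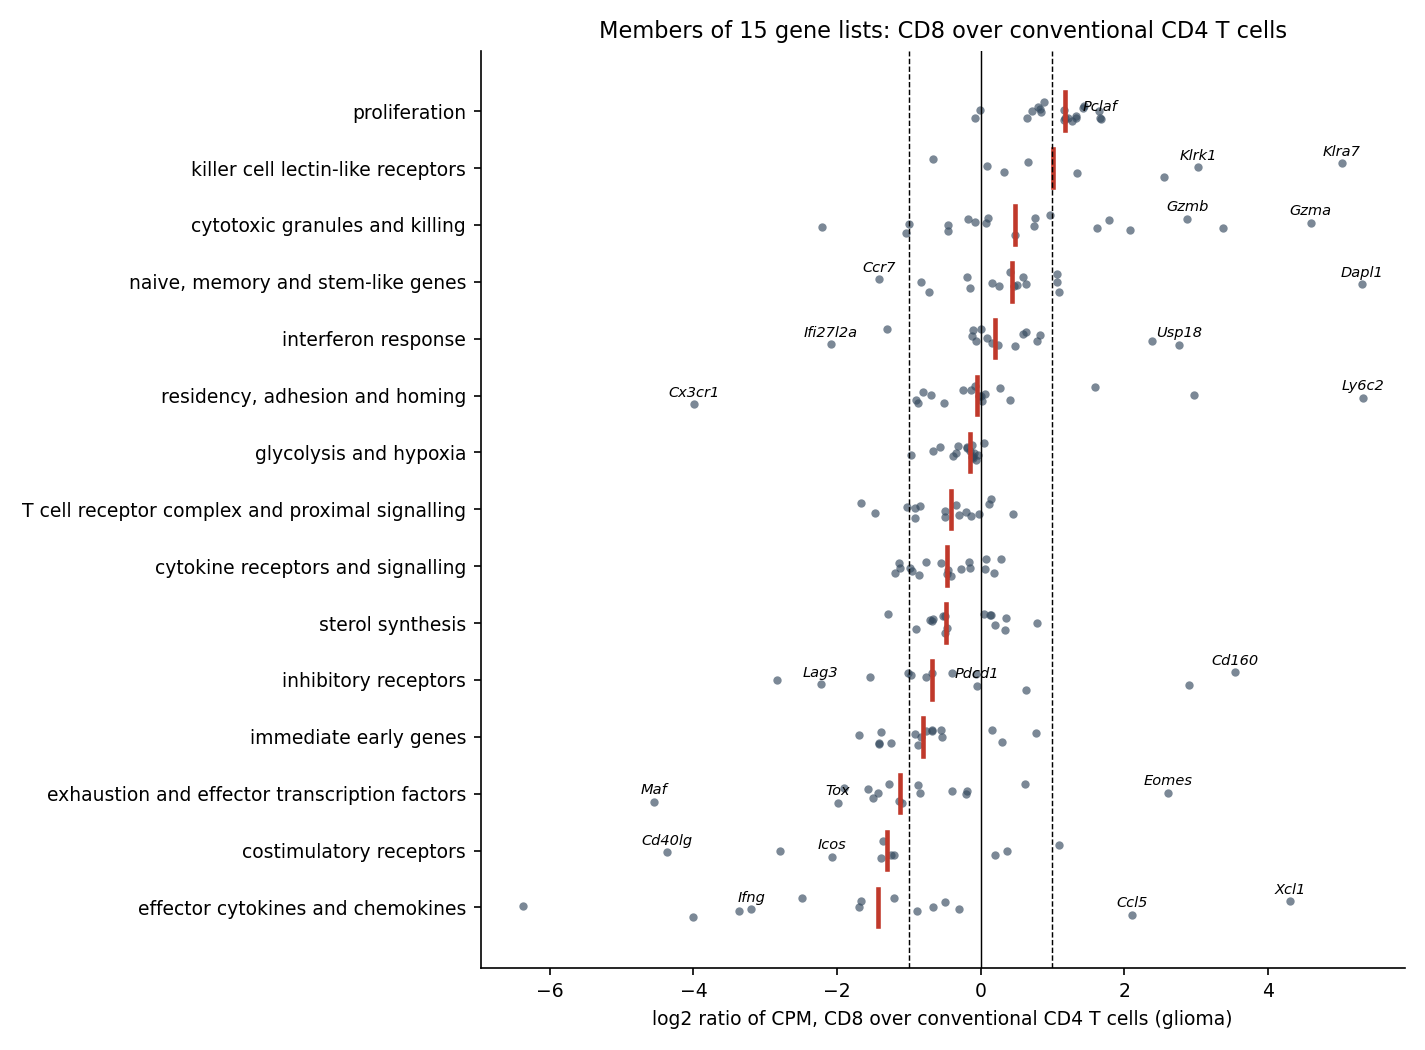
Log2 ratio of CPM, glioma CD8 over conventional CD4 T cells (horizontal axis), for each member with at least 20 UMIs of 15 gene lists (points); red bars are list medians and dashed lines mark 2-fold. Proliferation genes have the highest median (1.17) and effector cytokines and chemokines the lowest (-1.44), with Ly6c2, Dapl1 and Klra7 farthest to the right.

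Inhibitory receptors did not move as a block. Of 13 genes, 2 were at least 2-fold higher and 4 at least 2-fold lower in CD8 than in CD4 T cells (median -0.67). Pdcd1, which encodes PD-1, had 1000 UMIs or 263 CPM in CD8 and 612 UMIs or 274 CPM in CD4 T cells, a ratio whose interval spans 0 (-0.06, -0.20 to 0.09). Lag3, an MHC class II-binding receptor, had 54.7 CPM in CD8 and 257 CPM in CD4 T cells (-2.23, -2.46 to -2.0). Ctla4 had 103 CPM in CD8 and 300 CPM in CD4 T cells (-1.55), and Havcr2, which encodes TIM-3, 42.1 CPM in CD8 and 84.9 CPM in CD4 T cells (-1.01, -1.32 to -0.70). Higher in CD8 were Cd160, at 60.0 CPM against 4.92 CPM in CD4 T cells (3.55, 2.74 to 4.63), and Cd244, with 44 UMIs in CD8 and 3 in CD4 T cells (2.90).

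The receptors also differed in how many a cell held together. Of Pdcd1, Havcr2, Lag3, Tigit and Ctla4, 81 CD8 T cells held UMIs of none, 68 of 1, 79 of 2, 67 of 3, 30 of 4 and 2 of all 5. In CD4 T cells the numbers were 34, 73, 57, 61, 45 and 7. Depth moves with these counts: CD8 cells with none had a median of 7783 UMIs and those with 4 a median of 16033.5. After each cell was thinned to 1000 UMIs, 228 of 327 CD8 and 122 of 277 CD4 T cells held none of the 5, 16 CD8 and 36 CD4 T cells held 2, and 5 CD8 and 10 CD4 T cells held 3.

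Transcription factors of activation and exhaustion were mostly lower in CD8. Of 17 genes 16 had at least 20 UMIs, with 1 at least 2-fold higher and 9 at least 2-fold lower than in CD4 T cells (median -1.12). Eomes, a T-box factor of memory and exhausted CD8 T cells, was the one that was higher, at 36.8 CPM against 5.81 CPM in CD4 T cells (2.62, 1.84 to 3.61). Tbx21, which encodes T-bet, had 23.4 CPM in CD8 and 26.8 CPM in CD4 T cells (-0.20, -0.68 to 0.30). Tox, a driver of T cell exhaustion, had 34 UMIs or 8.95 CPM in CD8 and 80 UMIs or 35.8 CPM in CD4 T cells (-1.99, -2.62 to -1.40). Maf, a factor of helper and regulatory T cells, had 11.3 CPM in CD8 and 269 CPM in CD4 T cells (-4.56). The factors Batf (-1.28), Bhlhe40 (-1.58) and Hif1a (-1.49) were lower as well.

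Nr4a2, the receptor of the study's title, was not among the genes that set these cells apart. It had 230 UMIs or 60.5 CPM (53.0 to 68.9) in CD8 and 155 UMIs or 69.3 CPM in CD4 T cells (-0.20, -0.49 to 0.11). The free RNA of the library held 83.5 CPM, and the Csf1r cells 91.7 CPM. Of the 327 CD8 T cells, 220 held no Nr4a2 UMI and the highest held 11. After thinning to 1000 UMIs, 6.42% of CD8 T cells, 6.86% of CD4 T cells and 8.84% of Csf1r cells held one, from median depths of 8861, 6911 and 15556.5 UMIs. Its relatives Nr4a1 (24.5 CPM in CD8 and 92.1 CPM in CD4 T cells, -1.91) and Nr4a3 (-0.88) were lower in CD8.

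Costimulatory receptors were lower too. Of 10 genes, 1 was at least 2-fold higher and 7 at least 2-fold lower in CD8 than in CD4 T cells (median -1.31). Tnfrsf4, which encodes OX40, had 82.9 CPM in CD8 and 578 CPM in CD4 T cells (-2.80, -2.98 to -2.62), and Icos 117 CPM in CD8 and 493 CPM in CD4 T cells (-2.07). Cd40lg, the helper ligand for CD40, had 3 UMIs in CD8 and 42 in CD4 T cells (-4.37, -6.91 to -2.93). Tnfrsf9, which encodes 4-1BB, had 141 CPM in CD8 and 362 CPM in CD4 T cells (-1.36). Slamf7 was the member that was higher (1.09), and Cd27 had a ratio of 0.37. The part of any regulatory T cells left among the CD4 T cells in these ratios was not tested.

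Naive, memory and stem-like genes leaned towards CD8. Of 18 genes 16 had at least 20 UMIs, 4 at least 2-fold higher and 1 at least 2-fold lower than in CD4 T cells (median 0.43). As a mean over cells rather than a sum, 2 were at least 2-fold higher. Dapl1, a transcript of naive and early memory CD8 T cells, had 235 UMIs in CD8 and 3 in CD4 T cells (5.31, 3.96 to 7.82); 10 CD8 T cells held 69.8% of its UMIs. Tcf7, which encodes the stem-like factor TCF-1, had 69.0 CPM in CD8 and 50.1 CPM in CD4 T cells (0.46, 0.14 to 0.79). Ccr7, the lymph node chemokine receptor, went the other way, with 203 CPM in CD8 and 541 CPM in CD4 T cells (-1.41). Ccr7 is also a gene of mature dendritic cells, whose markers were higher in the CD4 sum, and the part of that RNA in the ratio was not tested.

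The adhesion and homing list had a median near 0 but held Ly6c2, whose ratio was close to that of Dapl1. Ly6c2, a surface antigen of monocytes and memory CD8 T cells, had 2886 UMIs or 760 CPM in CD8 and 42 UMIs or 18.8 CPM in CD4 T cells (5.32, 4.90 to 5.81). The Csf1r cells held 90.8 CPM of it and the free RNA 51.4 CPM, and without the cells that held RNA of other cell types the ratio was 5.53. Itga1, a collagen-binding integrin of resident T cells, had 33.2 CPM in CD8 and 4.02 CPM in CD4 T cells (2.97, 2.07 to 4.21). Cd69, an early activation and residency antigen, was level, at 89.0 CPM in CD8 and 88.5 CPM in CD4 T cells (0.01, -0.25 to 0.27). Cxcr6, a receptor of resident T cells, was lower at 140 CPM in CD8 and 256 CPM in CD4 T cells (-0.87). Over the 18 of 20 genes with at least 20 UMIs, 3 were at least 2-fold higher and 1 at least 2-fold lower (median -0.05, and 0.06 with totals taken without ribosomal and mitochondrial genes). The lower one was Cx3cr1, the fractalkine receptor, with 4.47 CPM in CD8 and 72.9 CPM in CD4 T cells (-3.99); it is also a microglia and macrophage gene.

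Proliferation genes had the highest median of the 15 lists. All 20 had at least 20 UMIs, 12 were at least 2-fold higher in CD8 than in CD4 T cells and none was at least 2-fold lower (median 1.17). Stmn1, a tubulin-binding protein of dividing cells, had 418 CPM in CD8 and 131 CPM in CD4 T cells (1.67, 1.49 to 1.86), Top2a, the topoisomerase of dividing cells, 191 CPM in CD8 and 85.4 CPM in CD4 T cells (1.16), and Mki67 187 CPM in CD8 and 113 CPM in CD4 T cells (0.72). Deeper cells weigh more in a sum, and the cells with cycle transcripts were deep, as given below. Without any cell that held a Mki67, Top2a or Pclaf UMI, which left 177 CD8 and 183 CD4 T cells, the median of the list was 0.00 and 1 member was at least 2-fold higher. These genes belong to the list, so the removal lowers its median by construction and does not show what raised it.

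The remaining lists were mixed. Among 16 interferon response genes 2 were at least 2-fold higher and 2 at least 2-fold lower (median 0.20); Usp18 (63 UMIs in CD8 and 5 in CD4 T cells, 2.77) and Ifit3 (2.38) were higher and Ifi27l2a (-2.08) was lower. Of the 18 immediate early genes 16 had at least 20 UMIs, and 5 were at least 2-fold lower, among them the phosphatase Dusp1 (-1.70), the NF-kB inhibitor Nfkbia (-1.42) and the heat shock gene Hspa1a (-1.39), with a list median of -0.80. Without the cells that held RNA of other cell types 9 were at least 2-fold lower and the median was -1.12. Cytokine receptors had 3 of 18 members at least 2-fold lower (median -0.46), with Il2rb, the shared chain of the IL-2 and IL-15 receptors, at -0.15. None of 17 glycolysis genes reached 2-fold in either direction (median -0.15), and 1 of 16 sterol synthesis genes was at least 2-fold lower (median -0.48).

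Beyond the lists, Cd7, an immunoglobulin-type antigen of T and NK cells, had 68.4 CPM in CD8 and 3.58 CPM in CD4 T cells (4.17, 3.26 to 5.49), and Atp8b4, a phospholipid flippase, 50.3 CPM in CD8 and 4.02 CPM in CD4 T cells (3.57). The genes lowest in CD8 were led by Penk, which encodes the opioid precursor proenkephalin, with 8 UMIs or 2.11 CPM in CD8 and 751 UMIs or 336 CPM in CD4 T cells (-7.23, -8.53 to -6.33). Lgals7 (-6.56), Gpm6b (1 UMI in CD8 and 133 in CD4 T cells; -7.24, -13.13 to -5.32), Wisp1 (-5.34), Tiam1 (-4.92), Ermn (-4.78), St6gal1 (-4.71), Ramp1 (-4.33) and Cystm1 (-4.24) followed. Areg, the epidermal growth factor receptor ligand amphiregulin, had 13.7 CPM in CD8 and 232 CPM in CD4 T cells (-4.07).

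The 327 cells were uneven in their effector transcripts. Gzmb had a median of 5 UMIs a cell, 82 cells held none and the highest held 250. Gzma was more concentrated, with 217 cells at 0, 43 cells at 20 or more UMIs, and 83.2% of its UMIs in 33 cells. Ccl5 had a median of 15 UMIs and was at 0 in 48 cells. Counting a single UMI as presence, 110 cells held Gzmb alone, 36 Gzmb with Gzma, 34 Gzmb with Gzmk, 65 all 3 and 62 none, while 8 held Gzma alone and 11 Gzmk alone. With at least 2 UMIs of a granzyme required, 113 held Gzmb alone, 40 Gzmb with Gzma, 21 Gzmb with Gzmk, 39 all 3 and 98 none.

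Shares at a common depth give the same unevenness. After thinning to 1000 UMIs, 48.3% of CD8 T cells held a Gzmb UMI, against 10.1% of CD4 T cells and 0.25% of Csf1r cells; unthinned, the shares were 74.9%, 23.5% and 2.74%, at median depths of 8861, 6911 and 15556.5 UMIs. No cell was too shallow to be thinned. For Gzma the thinned shares were 22.0% of CD8 T cells, 1.81% of CD4 T cells and 0.25% of Csf1r cells (unthinned 33.6%, 3.25% and 1.96%). For Nkg7 they were 58.4%, 32.9% and 0.21% in the same order (unthinned 95.1%, 54.5% and 2.43%). Ly6c2 was found in 42.2% of CD8 T cells, 2.17% of CD4 T cells and 9.25% of Csf1r cells (unthinned 82.3%, 7.94% and 32.7%), so that its CD4 share lay below that of the Csf1r cells. Pdcd1 was found in 19.3% of CD8 and 22.7% of CD4 T cells (unthinned 55.7% and 58.1%), and in 0.06% of Csf1r cells.

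**Figure D3:**
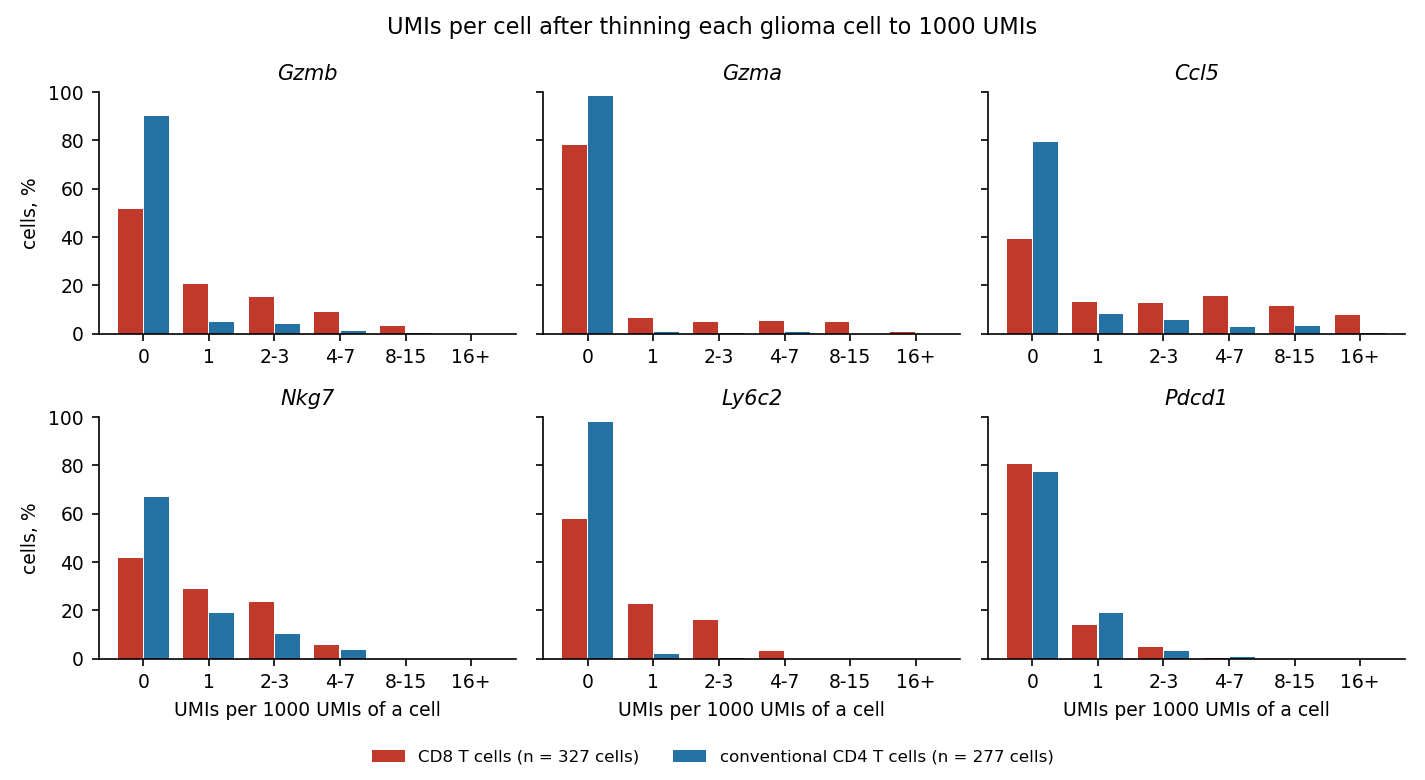
Share of glioma cells (percent) by the number of UMIs of 6 genes after thinning each cell to 1000 UMIs, for 327 CD8 (left bar of each pair) and 277 CD4 T cells. Ccl5 spreads to 16 or more UMIs in 7.95% of CD8 T cells, while 78.0% of CD8 T cells have no Gzma UMI.

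The most variable genes among the thinned cells, by variance over mean, were in part the cells' own and in part those of other cell types. The median over 3377 genes found in at least 10 cells was 0.995 and the 90th percentile 1.21. Ccl5 stood at 10.2, Gzma at 9.01, Gzmb at 3.43 and Gzmc at 3.24, with the interferon-induced Ifitm1 at 5.46 and Hspa1a at 5.91. Cst3 (13.4), Cd74 (8.43) and H2-Eb1 (5.24) are genes of antigen-presenting cells, and 10 cells held 75.7% of the Cst3 UMIs. Also among the leading 20 were Malat1, Tmsb4x, Il1b, H2-Ab1, Apoe, Fth1, Cxcl2, Mt1, H2-Aa, Hspa1b and Actb. In CD4 T cells Ccl5 stood at 12.9, Gzma at 5.69 and Gzmb at 4.01.

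Cells were also set apart by their Gzmb and naive gene UMIs. A Gzmb range of 86 cells (26.3%, 21.6 to 31.4%) held at least 2 Gzmb UMIs and none of 4 naive T cell genes, Ccr7, Lef1 and Tcf7 among them. A naive-gene range of 56 cells (17.1%, 13.2 to 21.7%) held at least 2 UMIs of these 4 genes and no Gzmb UMI. The other 185 cells fell in neither range, 84 of them with at least 2 UMIs of both kinds. These are ranges of counts, not cell types: 4 cells of the Gzmb range held exactly 2 Gzmb UMIs, and 9 cells outside the naive-gene range held 1 UMI of its genes and no Gzmb. Median depths were 8414.5 UMIs in the Gzmb range and 9187 UMIs in the naive-gene range.

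Many, but not all, effector, inhibitory and cycle genes were higher in the Gzmb range. Of 6014 genes with at least 20 UMIs, 8.13% were at least 2-fold higher and 4.76% at least 2-fold lower; of the cytotoxic list without Gzmb, 7 of 17 were at least 2-fold higher and none lower (median 0.95). Gzma had 1994 CPM in the Gzmb range and 8.95 CPM, or 6 UMIs, in the naive-gene range (7.68, 6.67 to 9.25), although its median was 1 UMI a cell in the Gzmb range and 0 in the naive-gene range. Ccl5 had 5301 CPM in the Gzmb range and 856 CPM in the naive-gene range (2.63), with medians of 35 and 2.5 UMIs a cell. Nkg7 had 1670 CPM in the Gzmb range and 409 CPM in the naive-gene range (2.03), and Prf1 126 and 26.8 CPM (2.19).

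Of 9 inhibitory receptor genes with enough UMIs, 8 were at least 2-fold higher in the Gzmb range (median 1.41). Pdcd1 had 370 CPM there and 134 CPM in the naive-gene range (1.46, 1.12 to 1.82), Lag3 had a ratio of 1.41 and Ctla4 1.28. With Ccr7 left out of the genes that set the naive-gene range, the Pdcd1 ratio was 2.55 (2.07 to 3.12). Havcr2 had a ratio of 1.24 (0.37 to 2.26), which was 1.95 with Ccr7 left out of the split and 3.10 (1.45 to 6.50; 39 against 2 UMIs) without the cells that held RNA of other cell types. In the homing list 8 of 17 genes were at least 2-fold higher (median 0.97), among them the inflammatory chemokine receptor Ccr2, at 198 CPM in the Gzmb range and 13.4 CPM in the naive-gene range (3.81, 2.93 to 5.04), with Cxcr6 (2.11) and Itga1 (3.53). The residency genes Cd69 (-0.16, -0.66 to 0.36) and Itgae (12 UMIs in the Gzmb range and 16 in the naive-gene range) were not higher. Proliferation genes were at least 2-fold higher in 10 of 20 cases (median 1.05). Id2, a factor of effector T cells, had a ratio of 2.27 and the NK-type receptor gene Klrc1 2.59.

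In the other direction, 8 of 11 naive and memory genes that the split did not use were at least 2-fold lower in the Gzmb range (median -1.59). Dapl1 had 9.38 CPM in the Gzmb range and 163 CPM in the naive-gene range (-4.03, -5.36 to -3.09; -3.13 with Ccr7 left out of the split), Myb, a stem-like factor, 32.8 and 157 CPM (-2.23, -2.91 to -1.64), and the chromatin organiser Satb1 128 and 385 CPM (-1.59). Klf2, which maintains the egress receptor S1pr1, had 82.1 CPM in the Gzmb range and 216 CPM in the naive-gene range (-1.39), and S1pr1 itself -1.44. Slamf6 (-1.75), Txk (-1.68) and the survival gene Bcl2 (-0.91) lay lower as well. Nr4a2 was level, at 54.0 CPM in the Gzmb range and 55.2 CPM in the naive-gene range (-0.04, -0.69 to 0.63), and Eomes had a ratio of -0.42.

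RNA of other cell types moved with this split. Neutrophil S100a8 had 323 CPM in the Gzmb range and 2.98 CPM in the naive-gene range (6.44) with a median of 0 UMIs a cell in both, while Cd74 (-2.90), H2-Ab1 (-2.93) and Cst3 (-2.85) were lower in the Gzmb range. Left without 2 cells of the Gzmb range and 10 of the naive-gene range, these genes moved to 0.70 for S100a8, -0.24 for Cd74, 0.05 for H2-Ab1 and 0.80 for Cst3. In the same 84 and 46 cells S100a4 stood at 4.08, against 2.58 in all cells of the ranges, Gzma at 7.36, Ccl5 at 2.44, Pdcd1 at 1.99, Dapl1 at -4.04 and Myb at -2.60.

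**Figure D4:**
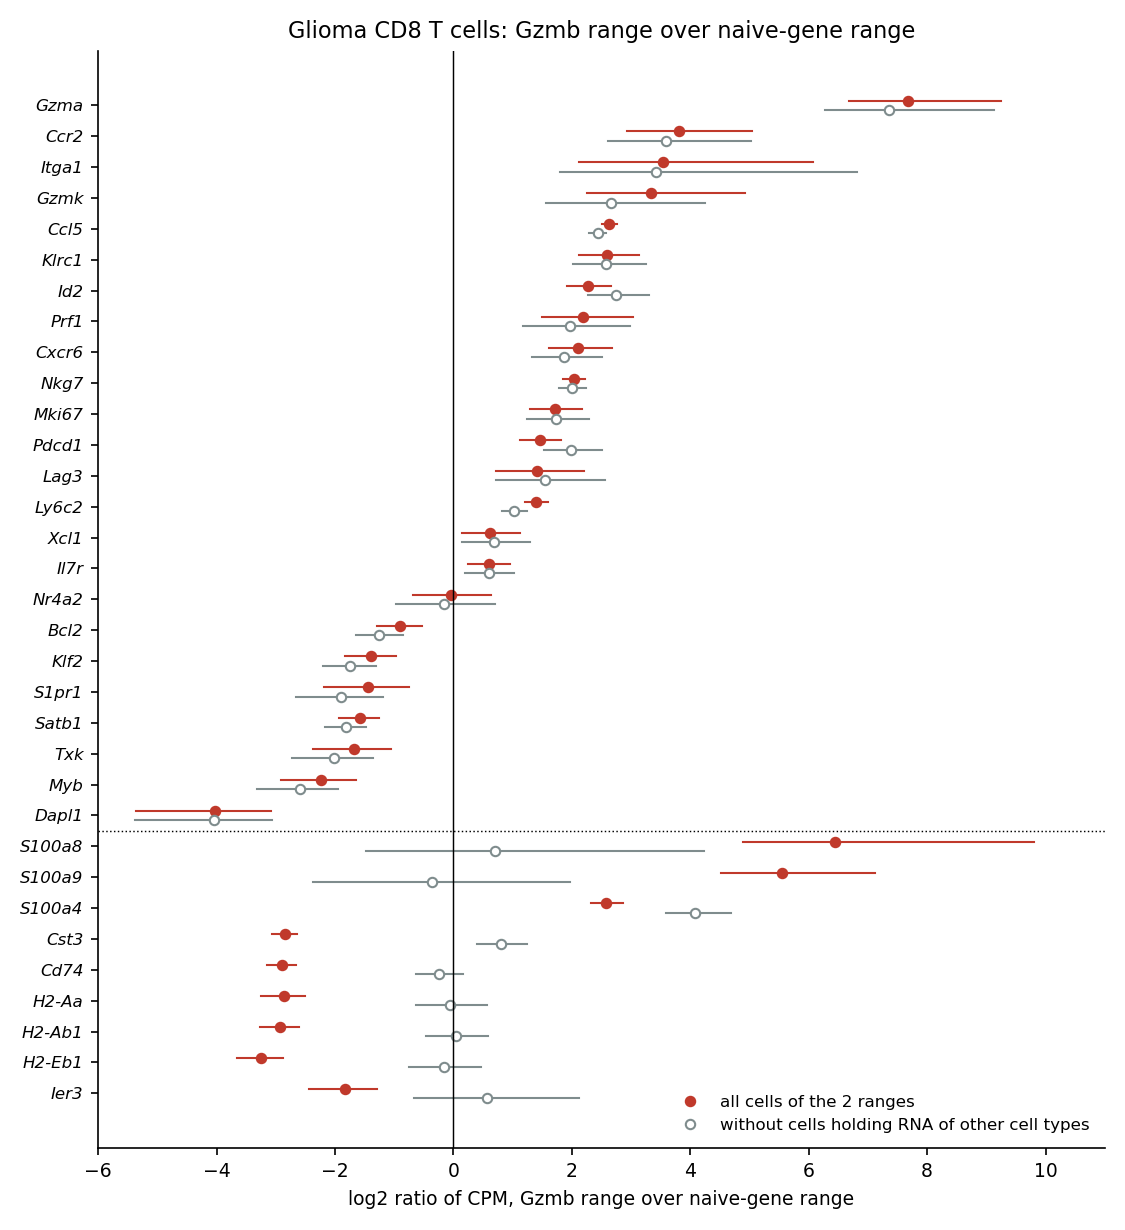
Log2 ratio of CPM, Gzmb range over naive-gene range, for named genes (filled points, 86 and 56 cells; open points, 84 and 46 cells without those holding RNA of other cell types; lines are counting intervals cut at the axis ends). Genes above the dotted line keep their sign in both settings, with intervals of Nr4a2 that span 0, while Cst3, S100a9, H2-Ab1 and Ier3 below it change sides.

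PD-1 transcripts followed a related order. A Pdcd1 UMI was found in 182 cells (55.7%, median depth 10467 UMIs), 44 of them with a single UMI, and 145 cells (median 8044 UMIs) had none. Of 8401 genes, 4.79% were at least 2-fold higher and 2.43% at least 2-fold lower in the cells with Pdcd1. Rgs16, a regulator of G protein signalling, had 126 CPM in cells with and 24.5 CPM in cells without Pdcd1 (2.34, 1.86 to 2.90). Serpine2 (2.80), Anxa1 (2.46), Ifitm1 (1.86), S100a4 (1.55) and Lgals1 (1836 and 687 CPM in cells with and without, 1.42) were also higher, as was Gzmb (1.21). Of 12 other inhibitory receptor genes 2 were at least 2-fold higher and 1, Btla (11 UMIs in cells with and 21 in cells without Pdcd1, -1.57), was at least 2-fold lower (median 0.63), with Havcr2 at 1.0 and Lag3 at 0.91. Ccl5 was slightly lower (-0.27). Of 16 naive and memory genes 10 were at least 2-fold lower (median -1.26), among them Klf2 at 93.5 CPM in cells with and 247 CPM in cells without Pdcd1 (-1.40), Tcf7 (-1.27) and Lef1 (-1.27). Macrophage transcripts were lower in the cells with Pdcd1 too, among them Lyz2 (-1.33) and C1qb (-1.33), and their part in these ratios was not tested.

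The cells with Gzma formed a narrower set. At least 5 Gzma UMIs were found in 69 cells (21.1%, median depth 7710 UMIs), 217 cells (median 9121 UMIs) had none, and 41 lay between. Of 8116 genes, 3.04% were at least 2-fold higher and 4.0% at least 2-fold lower in the Gzma cells. Gzmk had 187 CPM in cells with Gzma and 43.0 CPM in cells without (2.12, 1.75 to 2.50), Ccl5 5755 and 1643 CPM (1.81), Gzmb 2815 and 851 CPM (1.73) and Ccl4 a ratio of 1.69. Ccr7 had 40.0 CPM in cells with and 250 CPM in cells without Gzma (-2.62, -3.23 to -2.11), Tcf7 -1.29 and Ikzf2, which encodes the factor Helios, 107 and 357 CPM (-1.72, -2.08 to -1.40). Nr4a2 had 31.7 CPM in cells with and 66.5 CPM in cells without Gzma (-1.04, -1.76 to -0.44). All 6 neutrophil markers with enough UMIs were at least 2-fold higher in the Gzma cells, S100a8 at 748 CPM in cells with and 22.3 CPM in cells without Gzma, and their part in these ratios was not tested. Over all glioma CD8 T cells, 10 cells held 96.8% of the S100a8 UMIs and 1 cell held 42.5%.

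Cells with cycle transcripts held less Ccl5. At least 2 UMIs of Mki67 and Top2a were found in 93 cells (28.4%, 23.6 to 33.7%; median depth 17720 UMIs), 18 of them with exactly 2, and none in 188 cells (median 7627.5 UMIs). The limit is on raw UMIs, which a deep cell passes more easily. Of 8122 genes, 12.3% were at least 2-fold higher and 4.91% at least 2-fold lower in the cycling cells. All 18 other proliferation genes were at least 2-fold higher (median 3.67), with Pclaf at 418 CPM in cycling and 7.14 CPM in other cells (5.81) and Birc5 at 5.06. Ccl5 had 1088 CPM in cycling and 4620 CPM in other cells (-2.09, -2.16 to -2.01), and Gzmk was lower as well (-1.33). Gzma did not differ beyond counting error (-0.04, -0.15 to 0.06), and Gzmb had 1460 CPM in cycling and 1000 CPM in other cells (0.55). Of 16 naive and memory genes 11 were at least 2-fold lower (median -1.12), among them S1pr1 (-1.80). Of 17 glycolysis genes 4 were at least 2-fold higher and 1 lower (median 0.83), with Ldha, lactate dehydrogenase, at 1.34.

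The 22 CD8 T cells with Gzmd, Gzme, Gzmf and Ccl1 transcripts differed from the 327 in more than the genes of the rule. Of 8618 genes, 10.6% were at least 2-fold higher and 5.84% at least 2-fold lower in glioma CD8 T cells than in these 22 cells (426740 UMIs, median depth 15988). Naive and memory genes were higher in 10 of 16 cases and lower in none (median 1.92): Tcf7 had 69.0 CPM in glioma CD8 T cells and 4.69 CPM, or 2 UMIs, in the 22 cells (3.56, 2.01 to 6.93), and Klf2 153 and 30.5 CPM (2.27). Interferon response genes were higher in 11 of 16 cases (median 1.54). Ccl5 had 2681 CPM in glioma CD8 T cells and 480 CPM in the 22 cells (2.48, 2.28 to 2.69), and Gzmk 76.1 and 9.37 CPM (2.85).

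Several killing genes and cytokines were higher in the 22 cells. Of 19 cytotoxic genes 4 were at least 2-fold lower in glioma CD8 T cells and 2 at least 2-fold higher (median -0.71), the higher ones being Gzmk and Gzmm (20 UMIs in glioma CD8 T cells and 0 in the 22 cells). Gzmm met the minimum through glioma CD8 T cells alone. Its 0 allows up to 3 UMIs in the shallower sum of the 22 cells, so its direction is not established. Of 8 cytokine and chemokine genes with enough UMIs 4 were at least 2-fold lower and 1, Ccl5, at least 2-fold higher (median -1.37). Gzmc, a close copy of the granzymes in the rule, had 104 CPM in glioma CD8 T cells and 3829 CPM in the 22 cells (-5.19, -5.36 to -5.04), and Prf1 69.5 and 452 CPM (-2.70, -2.98 to -2.43). Gzmb had 1279 CPM in glioma CD8 T cells and 4457 CPM in the 22 cells. Xcl1 had 102 and 965 CPM (-3.24), Ifng 24.7 and 244 CPM (-3.30), Ccl4 63.7 and 422 CPM (-2.73), and Il2ra, the alpha chain of the IL-2 receptor, 37.9 and 227 CPM (-2.59). Tff1 (-3.78), Nrgn (-2.86), Selenom (-2.40), Serpine2 (-2.31) and Il1r2 (-2.27) followed. Lag3 stood at 54.7 CPM in glioma CD8 T cells and 176 CPM in the 22 cells. Neutrophil markers were at least 2-fold higher in glioma CD8 T cells in 5 of 6 cases, S100a9 at 271 CPM against 7.03 CPM in the 22 cells. Cxcl2, Il1b and H2-Ab1, genes of myeloid cells, were also higher in glioma CD8 T cells. Few cells carried most of this RNA: 10 glioma CD8 T cells held 97.7% of the S100a9, 91.0% of the Cxcl2 and 72.3% of the Il1b UMIs. Without the CD8 cells that held RNA of other cell types, S100a9, Cxcl2 and Il1b stood at 9.43, 18.9 and 48.5 CPM. All 22 cells together held 7.03, 14.1 and 39.8 CPM of them. Areg, at -4.06, rested on few cells: its ratio was 0.11 without cycling cells and 3.38 with at least 3 CD8 UMIs required.

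Granule genes leaned towards NK cells, with Gzmb level. Of 19 cytotoxic genes 5 were at least 2-fold lower in glioma CD8 T cells than in NK cells and 1 was at least 2-fold higher (median -0.48), Gzmk with 289 UMIs in glioma CD8 T cells and 8 in NK cells (2.16, 1.25 to 3.47). Of 8684 genes, 9.73% were at least 2-fold higher and 7.98% at least 2-fold lower in glioma CD8 T cells (499042 UMIs in NK cells, median depth 6481). Gzmb had 1279 CPM in glioma CD8 T cells and 1288 CPM in NK cells, and Nkg7 1042 and 1365 CPM. Gzma had 967 CPM in glioma CD8 T cells and 6318 CPM in NK cells (-2.71, -2.78 to -2.64), Gzmc 104 and 2547 CPM (-4.61), and Prf1 69.5 and 313 CPM. Of 11 Klr genes 9 were at least 2-fold lower in CD8 T cells (median -1.53), led outside that list by Klra4 (2 UMIs in CD8 T cells and 154 in NK cells, -8.88). The signalling adaptors Tyrobp (-3.67) and Fcer1g (-3.37) were lower in CD8 T cells. NK cells were chosen by their Ncr1 and Klrb1c UMIs, so higher NK-type genes in them are not independent of that choice.

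T cell genes ran the other way. CD8 T cells were chosen with at least 2 CD3 UMIs and NK cells with none. Higher T lineage genes in CD8 T cells are not independent of that choice. Of 16 receptor complex and proximal signalling genes 10 were at least 2-fold higher in CD8 T cells and none at least 2-fold lower (median 1.29). Cd6 had 427 UMIs in CD8 T cells and 0 in NK cells and was at least 18.7-fold higher, and Themis was at least 14.1-fold and Cd5 at least 8.58-fold higher on the same bound of 3 UMIs in the NK sum. Bcl11b, a T lineage factor, had 376 UMIs in CD8 T cells and 1 in NK cells (5.04, 3.14 to 10.93). Pdcd1 had 263 CPM in CD8 T cells and 50.1 CPM in NK cells (2.37, 1.82 to 3.03), and 6 of 13 inhibitory receptor genes were at least 2-fold higher and 2 lower (median 0.83). Ly6c2 had 760 CPM in CD8 T cells and 30.1 CPM in NK cells (4.61). Sterol synthesis genes were at least 2-fold higher in 7 of 16 cases and lower in none (median 0.96).

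The control brain held too few CD8 T cells for a comparison. Its 3 cells held 3632, 6069 and 9536 UMIs, 19237 together, and the Csf1r condition had left out 68 others, against 93 in the glioma library. A single control cell carried nearly all effector transcripts, with 72 Gzma, 81 Ccl5, 26 Nkg7 and 4 Gzmb UMIs, and that cell also held Trdc and Ncr1 UMIs. Of 8417 genes, 5.93% were at least 2-fold higher and 48.9% at least 2-fold lower in glioma CD8 T cells, and 1 UMI in the control sum is worth 52.0 CPM. Pdcd1 had 263 CPM in glioma CD8 T cells and 0 UMIs in the control cells, which allows up to 3 UMIs of 19237.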

How the data were processed

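Droplet 3' RNA sequencing of CD45+ cells was listed for 4 glioma and 4 control samples. The authors deposited raw UMI counts, 1 unfiltered matrix a group, with 31053 genes and 6794880 barcodes each and no key from barcodes to samples. Per the submitters' processing notes, Cell Ranger 3.0.2, STAR and Seurat 3 were used, with the builds GRCh38 and mm10 named. Per the labels, kits of chemistry v2 or v3 were used. The glioma library held 159689787 UMIs and the control library 124023146.

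Cells were chosen by the UMI limits given in the report, and UMIs were summed over each group and divided by the group's total (CPM). Each ratio is the log2 difference of 2 CPM values after 0.5 UMIs were put into both sums, and genes needed at least 20 UMIs over both sums. With 1 library a group no test was made and p-values were not computed. Intervals are exact (Clopper-Pearson for shares, Poisson for levels, conditional binomial for ratios) and cover counting error only. Scrublet's automatic threshold, run through scanpy 1.11.5, marked no barcode as a doublet in either library, so none was removed in the results given. Cells were thinned to 1000 UMIs with a fixed seed. Other tools were numpy 2.4.6, pandas 2.3.3, scipy 1.17.1 and matplotlib 3.10.9. On simulated sums of the CD8 and CD4 comparison, 96.3% of intervals over 9318 genes held the true ratio. These sums were drawn with Poisson counting error alone, the error that the intervals assume. The result therefore checks the calculation and says nothing about spread between cells or animals.

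Named genes outside the lists are the 12 with the largest and the 12 with the smallest ratio by the interval bound nearest 0, among genes that had 100 or more UMIs in the compared groups and 50 CPM in the higher group, without genes of the rule, receptor segments, mitochondrial genes and unnamed models; of the lists, the most extreme and best known members were named, and the 20 most variable genes. The members and lists were chosen with earlier results of these data known. The NK comparison, the splits by Pdcd1, Gzma and cycle genes, the removal of cells with RNA of other cell types, the split without Ccr7 and the motifs were chosen after seeing the data. Cd244 is the file's symbol for Cd244a in the list. In single-cell sums, fewer cells with a transcript and less RNA per cell cannot be told apart. Promoters and gene positions came from RefSeq (GRCm38.p6) and GENCODE (mm10). Values of 2 list genes, 1 of which is among the 4 that set the naive-gene range, are not reported here.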

Additional observations from a re-analysis of the deposited data

How the results depend on the processing

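No paired analysis was possible because each group is 1 pooled matrix whose barcodes carry no sample number. The share of glioma CD8 T cells, 2.98%, moved to 3.38% with at least 1 CD8 UMI, 3.34% with at most 5% mitochondrial UMIs, 3.83% with Csf1r allowed and 2.62% without cells holding RNA of other cell types. Against CD4 T cells, 557 genes were at least 2-fold higher and 631 lower; the numbers that moved by over 1.5 times were 291 higher with 5 UMIs added, 184 higher and 276 lower with at least 100 UMIs, 1470 and 1981 with no minimum, and 302 higher without cycling cells. Scaled without ribosomal and mitochondrial genes they were 683 higher and 525 lower, every ratio shifted by 0.11 (log2), and Pdcd1 stood at 0.05 and the homing list's median at 0.06, on the other side of 0. Against the 22 Gzmd/e/f and Ccl1 CD8 T cells (914 higher, 503 lower) they were 75 and 1845 with 5 UMIs added, 254 and 110 with at least 100 UMIs, 2794 lower with no minimum and 759 lower without cycling cells. Against the 3 control cells (499 higher, 4119 lower) they were 769 higher with at least 1 CD8 UMI, 11 and 7944 with 5 UMIs added, 1076 lower with at least 100 UMIs, 9080 lower with no minimum, 255 and 2601 without cycling cells and 1148 and 1622 with Csf1r allowed. Fewer genes are counted under a higher minimum by construction, and the cause of the other moves was not tested. Directions reversed for 2 named values, Areg against the 22 cells at 3.38 (at least 3 CD8 UMIs) and 0.11 (without cycling cells), and, between the Gzmb and naive-gene ranges without cells holding RNA of other cell types, for Cst3 (0.80), H2-Ab1 (0.046), Ier3 (0.57) and S100a9 (-0.35). The 12 leading genes of each direction against CD4 T cells and against the 22 cells were counted once per setting. Of these values, 646 stayed inside the counting interval of the reported ratio and 120 moved out of it without reversing. Genes named only as list members were not in this count. Of values between the ranges 61 stayed and 21 moved, of list medians 454 stayed and 26 moved, and of list counts 814 stayed and 146 moved. Removing the barcodes with the highest doublet scores, 961 in the glioma library, took out 12 CD8 and 8 CD4 T cells. Depth limits transcripts of few UMIs: Cd40lg, Il21 and Csf2 in CD8 T cells, the 22 cells, and above all the control cells.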
